A study of Rattus norvegicus with 9 samples.

Results

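The PPAR receptor genes Ppara and Ppard, the PPAR target genes Angptl4, Pdk4, Cpt1a and Plin2, and the fatty acid oxidation enzymes Acadl, Acadvl and Hadha were followed in primary cultures of rat oligodendrocyte precursor cells (OPCs) that were left basal or given bavisant. The 9 genes were taken from the deposited tables by symbol, each had 1 row, and all 9 were among the 15321 genes with enough reads to test, of 32623 genes in the tables. The labels describe purified OPCs from the brain of WT rats, and all 9 cultures were kept for 5 days in differentiation medium (DMEM-F12 with laminin, biotin, B27 and N1 mix). There were 3 groups of 3 libraries: basal, with no bavisant, 1 µM bavisant and 10 µM bavisant. Bavisant blocks the H3 receptor for histamine. Each group had 1 library with each of the numbers P11, P13 and P14; what a P number stands for is not stated in the labels, nor whether the libraries came from separate animals or cultures, so p-values measure only the spread between these libraries, which may be technical.

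The 9 symbols were chosen with earlier results of these same libraries known, and which measured values each gene was selected on is not recorded. All values of the 9 genes below therefore describe these libraries and are not an independent test of the pathway.

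PPARs are nuclear receptors that bind fatty acids and their derivatives and, together with a retinoid X receptor (RXR), switch on genes for fatty acid transport, storage and oxidation. In mitochondrial fatty acid oxidation, Cpt1a lets long-chain fatty acids enter the mitochondrion, where acyl-CoA dehydrogenases and the trifunctional protein shorten them by repeated cycles. Oligodendrocytes make large amounts of lipid for myelin, and in the brain much of fatty acid oxidation is attributed to astrocytes.

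The cultures carried oligodendrocyte transcripts together with those of other cells. Depth ran over 23.9 to 43.1 M reads per library and was tied to the groups. Each basal library (23.9 to 33.5 M) had fewer reads than every bavisant library (34.8 to 43.1 M). Mature oligodendrocyte markers were the most abundant, led by Mbp (mean 21632 TPM, a transcript level that the authors scaled by gene length), and precursor markers were led by Olig1 (1081 TPM). Astrocyte (Gfap 908 TPM, Aldoc 321 TPM), microglial (C1qa 235 TPM, C1qc 211 TPM), neuronal (Tubb3 137 TPM, Dcx 92.0 TPM) and vascular or fibroblast markers (Col3a1 135 TPM, Tagln 92.5 TPM) were also present. The P11 libraries stood apart in all 3 groups, with a summed level of the vascular and fibroblast list of 451 to 633 TPM, against 143 to 365 TPM in the P13 and P14 libraries, and a summed neuronal level of 249 to 274 TPM, against 442 to 639 TPM.

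The 9 genes spanned a wide range of levels. On the TPM scale, which corrects for gene length, the enzymes of the oxidation cycle were highest. The median over the 9 libraries was 194 TPM for Hadha, the alpha subunit of the mitochondrial trifunctional protein, 74.4 TPM for Acadl, the long-chain acyl-CoA dehydrogenase, and 48.8 TPM for Acadvl, the very-long-chain one. Of the receptors, Ppard had a median of 27.7 TPM and Ppara of 1.44 TPM, and the ranges of these receptor levels over libraries did not overlap (26.2 to 29.1 TPM for Ppard, 1.14 to 2.13 TPM for Ppara). Pparg, the PPAR of fat cells, had 0 to 6 reads per library and was too low to test. The target genes lay below Ppard: Cpt1a, carnitine palmitoyltransferase of the outer mitochondrial membrane, at a median of 14.3 TPM, Plin2, a coat protein of lipid droplets, at 12.0 TPM, Angptl4, a secreted inhibitor of lipoprotein lipase, at 2.27 TPM, and Pdk4, a kinase that shuts off pyruvate dehydrogenase, at 0.874 TPM. The neighbours Cpt1a and Plin2 overlapped over libraries (8.63 to 16.5 and 8.45 to 15.5 TPM), and so did Angptl4 with Ppara and Ppara with Pdk4. The other neighbours in the order of levels did not overlap.

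**Figure D1:**
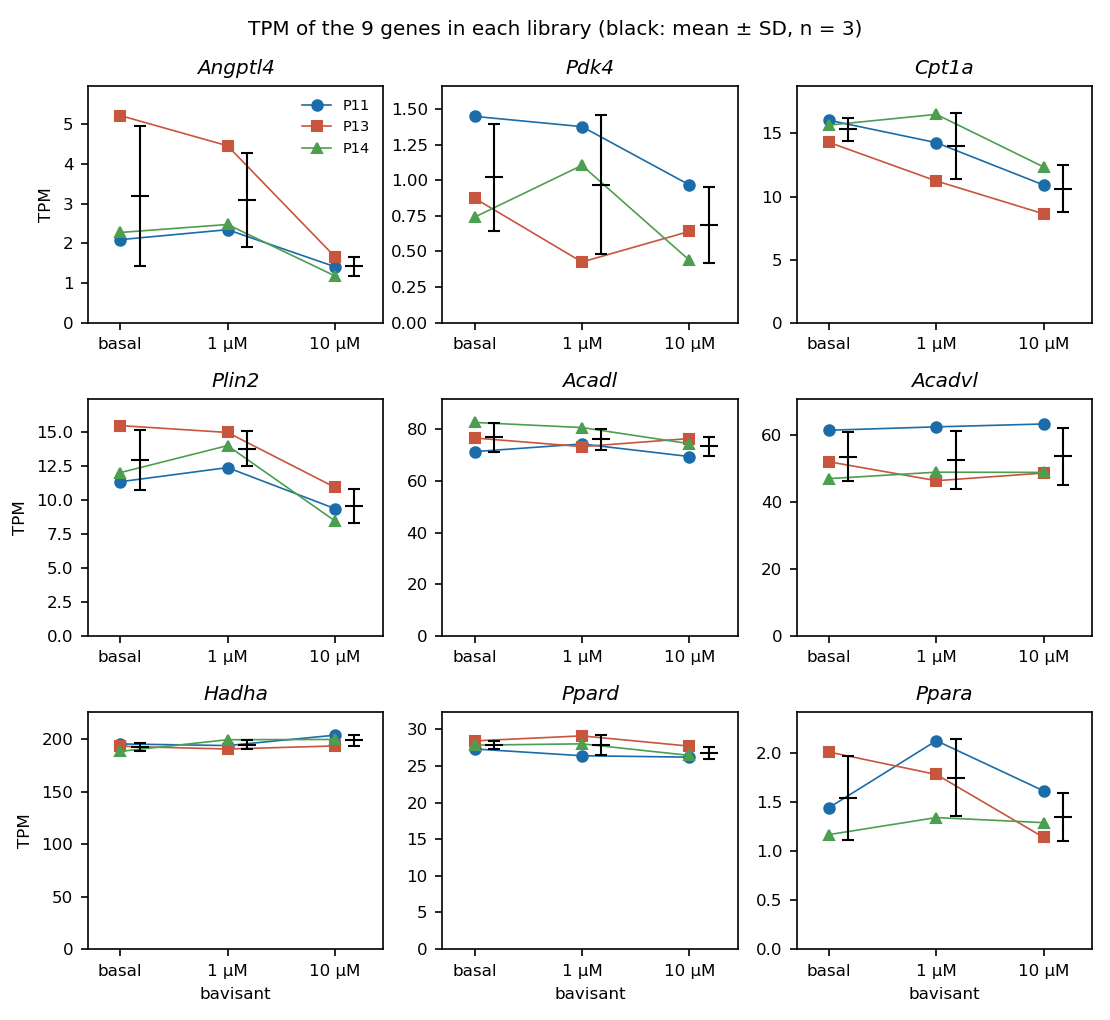
TPM of each gene in each of the 9 libraries, by group on the horizontal axis, with lines joining libraries of the same P number and black bars for mean ± SD (n = 3). Angptl4, Cpt1a and Plin2 lie lower in all 3 of the 10 µM libraries than in any basal library, while the points of Acadl, Acadvl, Hadha, Ppard, Pdk4 and Ppara overlap between groups.

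The sequence just upstream of the start was read for the 3 target genes that were lower with 10 µM bavisant without overlap. Acadvl and Hadha were added, the only genes of the 7 with a match to a PPAR element (up to 3 mismatches) before their start. The sequences come from RefSeq promoter windows of the GRCr8 assembly, a later build than the rn6 assembly of the deposited tables, and 7 of the 9 genes matched, with 8 windows. Each run is the 250 bases before the annotated start, 5′ to 3′ on the gene's strand. Capitals mark the exact hexamer AGGTCA, or the direct repeat AGGTCANAGGTCA (the element bound by PPAR with RXR) with up to 3 mismatches. Angptl4 is at chr7:15258682-15258931 (minus strand), Cpt1a at chr1:209995910-209996159 (plus), Plin2 at chr5:106229019-106229268 (minus, the first of 2 annotated starts), Acadvl at chr10:55236706-55236955 (minus) and Hadha at chr6:31907551-31907800 (plus).
Angptl4: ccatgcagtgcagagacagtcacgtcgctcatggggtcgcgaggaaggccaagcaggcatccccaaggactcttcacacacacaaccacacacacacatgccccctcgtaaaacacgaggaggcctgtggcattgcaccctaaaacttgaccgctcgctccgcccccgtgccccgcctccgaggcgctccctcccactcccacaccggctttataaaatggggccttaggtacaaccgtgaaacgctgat
Cpt1a: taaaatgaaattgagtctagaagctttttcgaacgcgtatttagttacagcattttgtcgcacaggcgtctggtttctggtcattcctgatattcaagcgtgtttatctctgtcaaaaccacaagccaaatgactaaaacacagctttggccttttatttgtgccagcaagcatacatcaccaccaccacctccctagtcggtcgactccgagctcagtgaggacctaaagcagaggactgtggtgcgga
Plin2: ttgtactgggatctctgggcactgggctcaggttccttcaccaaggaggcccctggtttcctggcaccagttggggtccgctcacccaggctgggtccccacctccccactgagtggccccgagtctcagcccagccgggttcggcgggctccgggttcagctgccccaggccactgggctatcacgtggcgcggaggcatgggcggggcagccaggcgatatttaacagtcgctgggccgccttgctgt
Acadvl: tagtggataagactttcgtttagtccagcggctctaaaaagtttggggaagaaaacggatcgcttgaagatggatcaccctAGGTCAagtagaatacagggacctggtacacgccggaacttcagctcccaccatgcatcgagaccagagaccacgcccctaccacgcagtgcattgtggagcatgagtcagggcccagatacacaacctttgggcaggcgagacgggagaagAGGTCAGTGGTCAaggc
Hadha: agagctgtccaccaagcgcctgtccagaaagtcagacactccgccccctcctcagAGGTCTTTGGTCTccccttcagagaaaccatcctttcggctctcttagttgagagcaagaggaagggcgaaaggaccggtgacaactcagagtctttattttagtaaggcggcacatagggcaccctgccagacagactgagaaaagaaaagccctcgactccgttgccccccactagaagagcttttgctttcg

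The element was searched on both strands, with up to 3 mismatches outside the N, in the whole window of 250 bases before and 50 after the start. Acadvl held AGGTCAGTGGTCA, 1 mismatch from the repeat, at -17 to -5 from its start (chr10:55236710-55236722). A match that close was found in 0.439% of all 33469 windows. The exact hexamer, which overlaps the repeat in Acadvl and also starts at -169, was found in 16.2% of windows. Hadha (-195 to -183 from its start) and the second Plin2 start (17 to 29 after it) each held a match with 3 mismatches, as did 24.9% of all windows. No such letters were found in the windows of Angptl4, Pdk4, Cpt1a and Ppara or of the first Plin2 start, which says nothing of elements elsewhere in these genes. Acadl and Ppard are named only.

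With 10 µM bavisant against basal, mean TPM was lower for the 4 target genes. It was also lower for Acadl (73.4 against 76.9), Ppard (26.8 against 27.9) and Ppara (1.35 against 1.54), and higher for Hadha and Acadvl. The TPM of most genes lay slightly lower: the median log2 fold change of all genes was -0.072 on log2(TPM + 1). It was -0.010 on counts scaled between libraries, where Acadl had -0.006 and Ppard 0.037. Pdk4, the oxidation enzymes and the receptors had overlapping levels. Each comparison was made in 2 ways: with groups only, and with the P number added as a block, since libraries of the same number deviated together. With groups only, edgeR's quasi-likelihood test with Benjamini-Hochberg adjustment called none of the 9 genes, as it called 0% of all genes tested (5.27% had an unadjusted p under 0.05, and DESeq2 called 64 genes). With the block it called 2 of the 9 genes, Angptl4 and Cpt1a, both lower, against 3.96% of all genes tested (1.32% higher, 2.64% lower). The TPM of 3 of the 9 genes, Angptl4, Cpt1a and Plin2, were lower without overlap, as were those of 8.12% of the genes tested. The median log2 fold change over the 9 genes was -0.08 with the block, and -0.01 over all genes.

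Angptl4, which blocks the release of fatty acids from circulating lipoproteins and is a classical PPAR target, had the largest change of the 9 genes. Its level was 2.09 TPM in P11, 5.22 in P13 and 2.27 in P14 of the basal cultures, 2.34, 4.45 and 2.47 TPM with 1 µM, and 1.41, 1.66 and 1.18 TPM with 10 µM. All 10 µM libraries lay below all others, and P13 was the highest library of each group. The mean was 1.42 ± 0.242 TPM with 10 µM and 3.19 ± 1.75 TPM in basal cultures (SD, n = 3 each). These levels rest on 45 to 160 reads per library. Before scaling for depth, P11 had 57 reads with 10 µM and 51 reads in basal cultures. The log2 fold change was -1.09 ± 0.41 (SE) with groups only (edgeR adjusted p = 0.905) and -1.01 ± 0.20 with the block (adjusted p = 0.0359), a change of -50.3%, and within P11, P13 and P14 it was -0.50, -1.50 and -0.86. The call held with the block only when the 10 µM P11 library was left out (adjusted p = 0.0309); without any 1 of the other 8 libraries the adjusted p was 0.0538 to 0.168. Without the basal P13 library the log2 fold change was -0.55 with groups only and -0.78 with the block. Without the 3 P11 libraries it was -1.22 (adjusted p = 0.0682), without the 3 P13 libraries -0.70 (0.201) and without the 3 P14 libraries -1.06 (0.232). With the block, limma on log2(TPM + 1) did not call it (adjusted p = 0.0604).

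Cpt1a controls the entry of long-chain fatty acids into the mitochondrion and is inhibited by malonyl-CoA. Its level was 16.1 TPM in P11, 14.3 in P13 and 15.7 in P14 of the basal cultures, 14.3, 11.2 and 16.5 TPM with 1 µM, and 10.9, 8.63 and 12.3 TPM with 10 µM. The 10 µM libraries lay below all basal libraries, and P13 was the lowest of each group. The mean was 10.6 ± 1.87 TPM with 10 µM and 15.3 ± 0.922 TPM in basal cultures (SD, n = 3 each). Cpt1a fell with the block, with a log2 fold change of -0.48 ± 0.08 (adjusted p = 0.0223), a change of -28.5%, whereas the value with groups only was -0.47 ± 0.16 (adjusted p = 0.892). Within P11, P13 and P14 the log2 fold change was -0.52, -0.62 and -0.30. With the block, the call was lost without the 10 µM P13 (adjusted p = 0.0655), 10 µM P14 (0.0678), basal P11 (0.0932) or basal P13 library (0.103), and it was lost without all 3 P11 (log2 fold change -0.45, adjusted p = 0.107), P13 (-0.41, 0.0842) or P14 libraries (-0.58, 0.137). The 2 other carnitine palmitoyltransferase 1 genes and the inner-membrane enzyme Cpt2, named after their values were seen, had blocked log2 fold changes of 0.06 ± 0.12 (Cpt1b), -0.15 ± 0.06 (Cpt1c) and 0.20 ± 0.06 (Cpt2), and none passed (adjusted p = 0.108 for Cpt2).

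Plin2 coats lipid droplets in most tissues and is used as a sign of stored lipid. Its level was 11.3 TPM in P11, 15.5 in P13 and 12.0 in P14 of the basal cultures, 12.4, 15.0 and 13.99 TPM with 1 µM, and 9.36, 10.9 and 8.45 TPM with 10 µM. Each 10 µM library was below every basal and every 1 µM library. The mean was 9.58 ± 1.25 TPM with 10 µM and 12.9 ± 2.22 TPM in basal cultures (SD, n = 3 each). The log2 fold change did not pass, at -0.36 ± 0.15 with groups only (adjusted p = 0.923) and -0.36 ± 0.09 with the block (adjusted p = 0.0679), and it was -0.25, -0.38 and -0.44 within P11, P13 and P14. Without the 3 P11, P13 or P14 libraries it was -0.39 (adjusted p = 0.175), -0.35 (0.200) and -0.32 (0.291). Scaled by library totals, the blocked fit called it (adjusted p = 0.0444). That scaling also moved the median log2 fold change of all genes from -0.011 to -0.058.

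Pdk4 turns the cell from glucose to fatty acid use by phosphorylating pyruvate dehydrogenase. It was the lowest of the 9 genes, with 13 to 48 reads per library. Its level was 1.45 TPM in P11, 0.874 in P13 and 0.741 in P14 of the basal cultures, 1.38, 0.426 and 1.105 TPM with 1 µM, and 0.968, 0.641 and 0.439 TPM with 10 µM. The groups overlapped, although the 10 µM library was below the basal one for each P number. The blocked log2 fold change was -0.50 ± 0.36 (95% interval -1.32 to 0.31, adjusted p = 0.433). The other pyruvate dehydrogenase kinases, named after their values were seen, were expressed at higher TPM: in 10 µM cultures Pdk1 had 15.8 to 19.3 TPM, against 18.8 to 23.7 TPM in basal cultures, Pdk2 had 43.9 to 58.9 TPM, against 42.5 to 49.9 TPM, and Pdk3 had 22.4 to 32.1 TPM, against 26.4 to 30.8 TPM. Their blocked log2 fold changes of -0.17 ± 0.07, 0.24 ± 0.07 and -0.0017 ± 0.067 did not pass (adjusted p = 0.202, 0.113 and 0.991).

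The 3 oxidation enzymes differed little between groups. Hadha, which carries out consecutive steps of the oxidation cycle on long chains, had 195, 193 and 188 TPM in P11, P13 and P14 of the basal cultures, 194, 191 and 200 TPM with 1 µM, and 204, 194 and 200 TPM with 10 µM. Its highest library was 1.08 times its lowest, the narrowest spread of the 9 genes. The blocked log2 fold change of Hadha for 10 µM against basal was 0.11 ± 0.04 (95% interval 0.016 to 0.20), which did not pass over all genes (adjusted p = 0.163), and that of Hadhb, its partner subunit, named after its values were seen, was 0.03 ± 0.05 (adjusted p = 0.735). Acadl had 71.4, 76.6 and 82.7 TPM in P11, P13 and P14 of the basal cultures, 74.3, 73.3 and 80.7 TPM with 1 µM, and 69.5, 76.4 and 74.4 TPM with 10 µM, with overlapping groups. Its blocked log2 fold change was -0.01 ± 0.06 (95% interval -0.15 to 0.13, adjusted p = 0.963).

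Acadvl, which takes the first step on the longest chains, varied by P number more than by dose. It had 61.3, 51.9 and 46.9 TPM in P11, P13 and P14 of the basal cultures, 62.3, 46.2 and 48.8 TPM with 1 µM, and 63.1, 48.5 and 48.7 TPM with 10 µM. The P11 libraries were the highest of each group. Its blocked log2 fold change for 10 µM against basal was 0.06 ± 0.05 (95% interval -0.06 to 0.18, adjusted p = 0.532).

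Neither receptor passed. Ppard, the PPAR found in most tissues, had 27.3, 28.4 and 27.9 TPM in P11, P13 and P14 of the basal cultures, 26.4, 29.1 and 28.0 TPM with 1 µM, and 26.2, 27.7 and 26.5 TPM with 10 µM. Its blocked log2 fold change for 10 µM against basal was 0.04 ± 0.05 (95% interval -0.07 to 0.14, adjusted p = 0.677). It was -0.01 when scaled by library totals and -0.06 on log2(TPM + 1), so its sign depended on the scaling. The median of all genes, in the same order, was -0.011, -0.058 and -0.072. Ppara, the PPAR of liver and other tissues that burn fat, had 1.44, 2.01 and 1.17 TPM in P11, P13 and P14 of the basal cultures, 2.13, 1.78 and 1.34 TPM with 1 µM, and 1.61, 1.14 and 1.29 TPM with 10 µM, from 36 to 92 reads per library. Within P11, P13 and P14 its log2 fold change for 10 µM against basal was 0.33, -0.71 and 0.18, and with the block it was -0.08 ± 0.24 (adjusted p = 0.872).

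**Figure D2:**
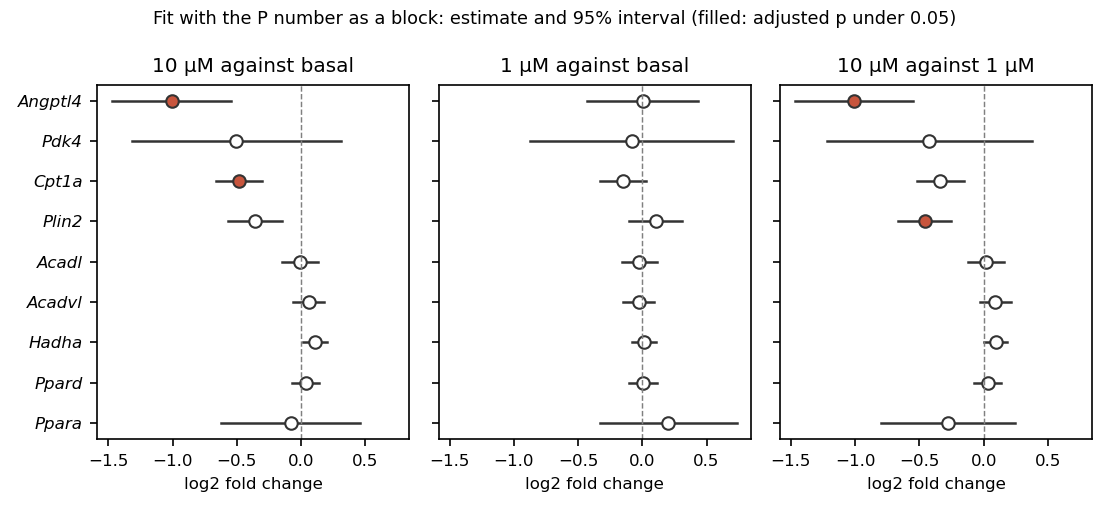
Log2 fold change of each gene (horizontal axis) with its 95% interval, from the fit with the P number as a block, in the 3 comparisons; filled points had an adjusted p under 0.05. Angptl4 passed at -1.01 in both comparisons of 10 µM, Cpt1a at -0.48 against basal and Plin2 at -0.46 against 1 µM, and all points of the 1 µM comparison are open.

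With 1 µM bavisant against basal, none of the 9 genes passed in either fit, as 0% of all genes tested did (edgeR; 0.529% had an unadjusted p under 0.05 with groups only and 3.8% with the block, while DESeq2 called 5 genes and 8 genes). No gene of the 9 was without overlap in TPM between 1 µM and basal, against 2.78% of the genes tested. Angptl4 had a mean of 3.09 ± 1.18 TPM with 1 µM and 3.19 ± 1.75 TPM in basal cultures (SD, n = 3 each), with a blocked log2 fold change of 0.0023 ± 0.19. Its interval of -0.43 to 0.44 does not exclude a moderate change of this gene. For Cpt1a it was -0.15 ± 0.08 (95% interval -0.33 to 0.03) and for Plin2 0.10 ± 0.09 (-0.10 to 0.31). The widest intervals were those of the low genes Pdk4 (-0.87 to 0.71) and Ppara (-0.33 to 0.73), and the narrowest was that of Hadha (-0.08 to 0.11).

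Set against 1 µM rather than basal, 10 µM bavisant gave lower Angptl4 and Plin2. These comparisons share libraries with those above, so their likeness is no separate evidence. With the block, edgeR called 2 of the 9 genes, against 4.3% of all genes tested (1.31% higher, 3% lower), and with groups only it called none, as for 0% of genes (4.68% had an unadjusted p under 0.05, and DESeq2 called 66). Angptl4 had a blocked log2 fold change of -1.01 ± 0.20 (adjusted p = 0.0344), with -0.68, -1.27 and -0.99 within P11, P13 and P14. Plin2 averaged 9.58 ± 1.25 TPM with 10 µM and 13.8 ± 1.31 TPM with 1 µM (SD, n = 3 each), a blocked log2 fold change of -0.46 ± 0.09 (adjusted p = 0.0328) with -0.37, -0.34 and -0.67 within P11, P13 and P14. Both were lower without overlap in TPM, as 7.73% of the genes tested were. Cpt1a did not pass, with -0.34 ± 0.08 (adjusted p = 0.0531) and overlapping groups; scaled by library totals, or with DESeq2's test, it passed with the block (lowest adjusted p = 0.0154). Library totals also moved the median log2 fold change of all genes from -0.0045 to -0.062. With the block, the Angptl4 call held without the 10 µM P11 (adjusted p = 0.0235), basal P11 (0.0436) or basal P13 library (0.0392), and was lost without any 1 of the other 6 (0.0676 to 0.128). The Plin2 call held only without the 10 µM P11 library (0.0415) and was lost without any 1 of the other 8 (0.0521 to 0.131). Cpt1a passed with the block without the basal P13 (0.0481) or basal P14 library (0.0478), and not without any 1 of the others (0.0841 to 0.215). Without the 3 P11, P13 or P14 libraries, Angptl4 had -1.16, -0.86 and -0.998 (adjusted p = 0.0564, 0.133 and 0.243) and Plin2 -0.50, -0.52 and -0.35 (0.104, 0.0891 and 0.276), none of which passed. Under limma on log2(TPM + 1) with the block, Angptl4 did not pass either (adjusted p = 0.0615).

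The rest of the pathway was described by 10 lists holding 217 distinct genes, of which 190 could be tested. With 10 µM against basal and the block, 9 of the 190 passed, 3 higher and 6 lower, a share of 4.74%, near the 3.96% of all genes tested; with groups only none did. With the block, no gene of the whole table passed without the basal P11 library or without all 3 P14 libraries, so all calls of list genes below were lost there. Of 26 tested PPAR target genes other than the 9, only Lpl passed, and 17 lay above 0 (median log2 fold change 0.04). None of 31 mitochondrial oxidation genes (median 0.03) and none of 28 peroxisomal genes (median 0.07) passed. Of 23 PPAR partners and coregulators none passed, and 18 lay below 0 (median -0.13). Over all 15321 genes tested, 8090 lay below 0 and 7231 above, and the median was -0.01. On the list, 9 PPAR target genes were too low to test, among them Cyp4a1, Cyp4a3 and Creb3l3, liver genes with 0 reads in every library, a count that, by counting error alone, still allows 3 reads.

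Lpl encodes lipoprotein lipase, the enzyme that Angptl4 inhibits. Lpl had 5.03, 6.30 and 9.20 TPM in P11, P13 and P14 with 10 µM, against 10.1, 9.16 and 14.6 TPM in basal cultures. The groups overlapped at the margin, and the 10 µM library was the lower one of each P number. Its blocked log2 fold change was -0.67 ± 0.12 (adjusted p = 0.0305). In the list of fatty acid uptake and activation, 2 of 23 tested genes passed, Lpl and Acsbg1, both lower (list median -0.05). Acsbg1, an acyl-CoA synthetase that is also on the astrocyte marker list, had 50.4, 74.8 and 100 TPM in P11, P13 and P14 with 10 µM, against 88.8, 112 and 130 TPM in basal cultures, a blocked log2 fold change of -0.52 ± 0.09 (adjusted p = 0.0255).

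Of the 3 called genes that were higher, 2 were on the list of lipid droplets and lipolysis. Dgat2, which makes triacylglycerol, had 146, 145 and 145 TPM in P11, P13 and P14 with 10 µM, against 117, 115 and 130 TPM in basal cultures, without overlap. Dgat2 rose by a blocked log2 fold change of 0.34 ± 0.05 (adjusted p = 0.0187). Lipe, the hormone-sensitive lipase, had 8.37, 6.63 and 6.91 TPM with 10 µM, against 5.61, 6.12 and 5.47 TPM in basal cultures, also without overlap, and rose by 0.42 ± 0.09 (adjusted p = 0.0378). Of all 15321 genes tested, 1.32% were called higher, and the TPM of 295 were higher without overlap. The median of the lipid droplet list was 0.08 over 17 tested genes. Among 10 ketone body genes, Aacs, which activates acetoacetate for lipid synthesis, rose by 0.30 ± 0.05 (adjusted p = 0.0201) with 63.5 to 69.8 TPM in 10 µM cultures, against 55.1 to 58.2 TPM in basal cultures, while the list's median was -0.16. None of 13 genes of the pyruvate dehydrogenase switch passed (median 0.02).

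Angptl4, Pdk4 and Plin2 are also known to respond to hypoxia or glucocorticoids, so lists of such genes were set beside them. Whether either response had a part in the levels of these genes was not tested. For 10 µM against basal with the block, 1.32% of all genes tested passed higher and 2.64% lower. Of the 15321 genes tested, 8090 lay below 0. Of 23 tested hypoxia-responsive genes 2 were called, both lower, and the list's median was -0.03. They were Egln3, an oxygen-sensing prolyl hydroxylase (-0.36 ± 0.06, adjusted p = 0.0270), and Pfkfb3, an activator of glycolysis (-0.34 ± 0.06, adjusted p = 0.0229). Of 19 tested glucocorticoid-responsive genes 2 were called, both lower, and 16 lay below 0 (median -0.18): Mt2A, a metallothionein (-0.67 ± 0.10, adjusted p = 0.0187), and Nfkbia, the inhibitor of NF-kB (-0.31 ± 0.06, adjusted p = 0.0328). Mt2A has near-identical copies in the genome and its estimated counts were not whole numbers, so its level is uncertain.

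**Figure D3:**
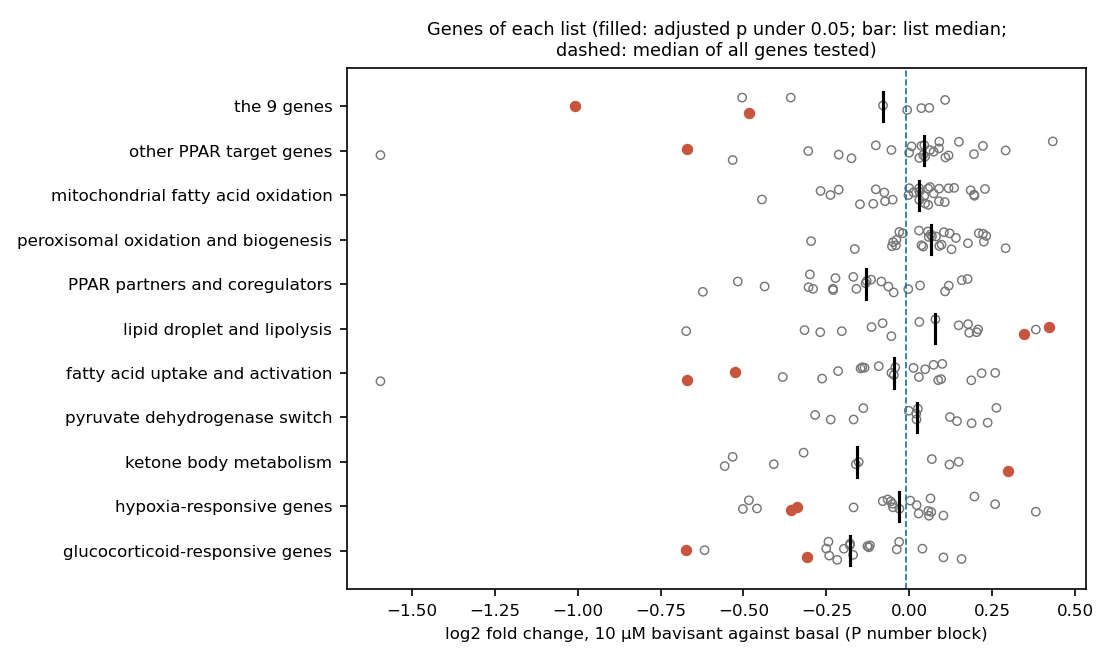
Blocked log2 fold change for 10 µM bavisant against basal of each tested gene (circles, horizontal axis) in the 9 genes and in the 10 pathway lists, with the list median (black bar) and the median of all genes tested (dashed line, -0.01). Filled circles passed an adjusted p of 0.05; the list medians lie between -0.18 and 0.08.

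Against 1 µM, the same lists gave 9 called genes of 190 at 10 µM, again 4.74%, with 2 higher and 7 lower, near the 4.3% of all genes tested (1.31% higher, 3% lower). These calls were made with the block; with groups only none of the 190 passed, and with the block no gene of the whole table passed without the 10 µM P14, the 1 µM P11 or the 1 µM P14 library, or without all 3 P14 libraries. Dgat2 (0.39 ± 0.05, adjusted p = 0.0160) and Aacs (0.29 ± 0.05, adjusted p = 0.0225) rose. The lysosomal lipase gene Lipa fell (-0.31 ± 0.06, adjusted p = 0.0367), with 28.8 to 38.2 TPM in 10 µM cultures and 39.7 to 48.6 TPM in 1 µM cultures. The hypoxia list held Adm, which encodes the peptide adrenomedullin (-0.75 ± 0.15, adjusted p = 0.0331), Egln3 (-0.30 ± 0.06, adjusted p = 0.0375) and Pfkfb3 (-0.34 ± 0.06, adjusted p = 0.0228), and the glucocorticoid list held Mt2A (-0.56 ± 0.10, adjusted p = 0.0283), Cdkn1c, a cell cycle inhibitor (-0.25 ± 0.05, adjusted p = 0.0373), and Nfkbia (-0.35 ± 0.06, adjusted p = 0.0228). With 1 µM against basal no gene of these lists passed.

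Genes whose pattern was most like each target gene were named by their Pearson correlation over the 9 libraries on log2 CPM (counts scaled to library size), after the mean of each P number was taken out, among 9319 genes with a mean of at least 10 CPM. The values are descriptions, since all genes share the libraries, their depth and the groups. Among the 3 nearest to Angptl4 were Rin2 (0.992) and Ogfrl1 (0.991). Nearest to Plin2 were Ctsk, a lysosomal protease (0.990), Pnp, purine nucleoside phosphorylase (0.990), and Tagln2 (0.989). Nearest to Cpt1a were the junction protein gene Jam2 (0.991), Fam217b (0.983) and Lamb2, a laminin chain (0.982). Pdk4, with its few reads, was nearest to Slc6a13, a GABA transporter (0.970), Rida (0.932) and Ppp1r1a (0.931).

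Cell type markers moved between the same groups. With 10 µM against basal and the block, 7 of 11 tested mature oligodendrocyte markers and 2 of 9 precursor markers passed, all higher. Of all genes tested, 1.32% passed higher and 2.64% lower. The precursor list was split, with 5 of the 9 markers above 0 and 4 below. The summed level of the mature list was 46763 to 52113 TPM with 10 µM and 35338 to 40043 TPM in basal cultures, and that of the precursor list 3370 to 3437 TPM with 10 µM and 3038 to 3369 TPM in basal cultures. On the other lists the markers that passed were all lower: 4 of 12 astrocyte, 5 of 14 microglial and 4 of 10 neuronal markers, while none of 8 vascular or fibroblast markers passed. The summed astrocyte level was 1496 to 2191 TPM with 10 µM and 1994 to 2550 TPM in basal cultures, and the microglial one 943 to 1111 TPM with 10 µM and 995 to 1438 TPM in basal cultures. The neuronal sum was 251 to 470 TPM with 10 µM and 274 to 639 TPM in basal cultures, and the vascular and fibroblast sum 143 to 451 TPM with 10 µM and 185 to 617 TPM in basal cultures. Apart from the mature oligodendrocyte and precursor sums, these ranges overlapped between the groups. The precursor sums were barely apart, at 3369.5 TPM in the 10 µM P13 library and 3368.8 TPM in the basal P13 library. With 10 µM against 1 µM and the block, 6 of 11 mature oligodendrocyte markers and 1 of 9 precursor markers passed, all higher. Of those 9 precursor markers, 6 lay above 0 and 3 below. In the same comparison 8 of 14 microglial, 4 of 8 vascular or fibroblast, 2 of 12 astrocyte and 1 of 10 neuronal markers passed, all lower. Of all genes tested, 1.31% passed higher and 3% lower there. The microglial sum was 943 to 1111 TPM in 10 µM cultures and 1125 to 1497 TPM in 1 µM cultures, without overlap, and the vascular and fibroblast sum was 143 to 451 TPM in 10 µM cultures and 191 to 633 TPM in 1 µM cultures. With groups only no marker passed in either comparison. No astrocyte, microglial or neuronal marker was at 0 in any library, and Rgs5 and Cldn5, mural and endothelial markers, were at 0 in some. Fewer cells of a type and less RNA per cell cannot be told apart in such bulk samples, and the part of these shifts in the levels of Angptl4, Cpt1a and Plin2 was not tested.

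**Figure D4:**
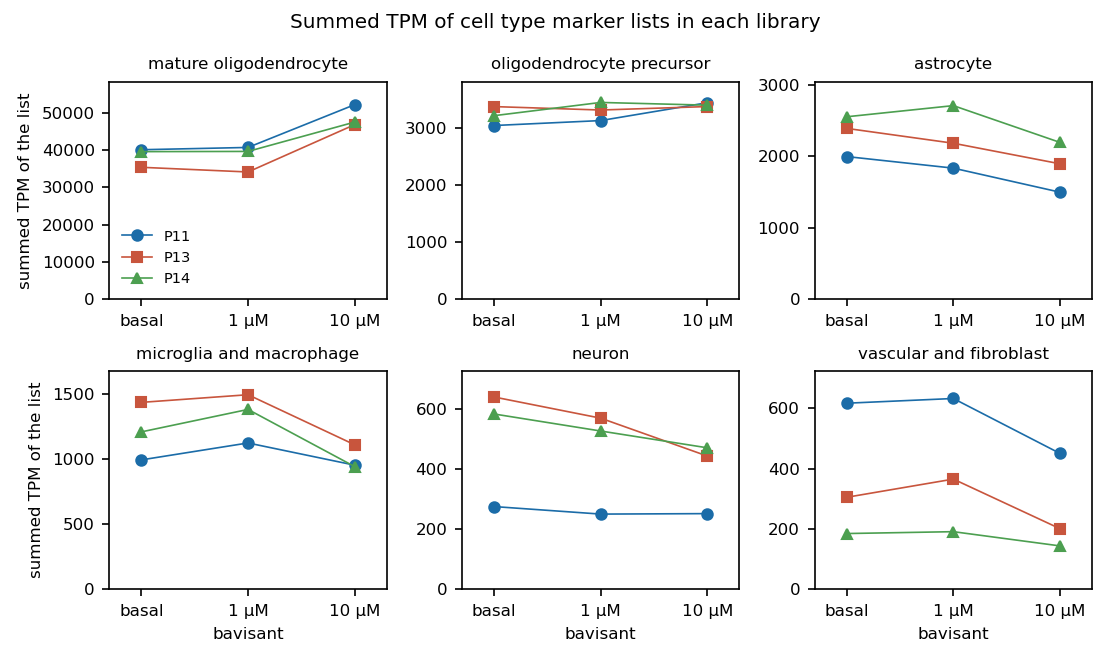
Summed TPM of 6 cell type marker lists in each library, by group on the horizontal axis, with lines joining libraries of the same P number. The mature oligodendrocyte sum is higher in the 10 µM libraries (46763 to 52113 TPM) than in all others, and the astrocyte, microglial and vascular sums are lower with 10 µM for each P number.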

How the data were processed

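RNA from rat OPC cultures was extracted with RNeasy, made into libraries with the Illumina Stranded mRNA Prep kit and read at 75 bases on a NextSeq, per the labels' protocols. A protocol text gives the lower dose as 1 mM, whereas the treatment label and the design give 1 µM, which is used here. FastQC, Trimmomatic, DRAGEN, Picard and build rn6 are named in the submitters' processing notes; for the counter, strand and annotation, the setting is not given in the sources used here, so reads of overlapping antisense genes may not be separated. The authors deposited estimated counts per gene (92.7% whole numbers), not scaled between libraries, and TPM values scaled by gene length.

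Counts were rounded and fitted over all 9 libraries with edgeR 4.0.16 (R 4.3.3, TMM scaling, filterByExpr with a count minimum of 10 and a total of 15), 1 coefficient per group, quasi-likelihood test, Benjamini-Hochberg adjustment over all genes tested and a threshold of 0.05. Every adjusted p is from this test unless DESeq2 (1.42.0) or limma (3.58.1) is named. A second fit added the P number as a block. The numbers pair the libraries by a check of the data, not by the labels: deviations from group means correlated at 0.319 to 0.772 in all 9 same-number pairs, against -0.708 to 0.193 in 18 other pairs. The deviations of a group cancel out by construction, so the lower values of the other pairs are no separate evidence. Since same-number libraries deviated together, blocked values are printed where they change a call. SE is the log2 fold change divided by the root of F. Total counts of 23.9 to 43.1 M per library set the precision, and intervals and floors cover counting error only where they come from counts alone. Pairs of libraries in each group differed by more than sampling noise, and none was counted as a duplicate.

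The 9 genes and the gene and marker lists were chosen with earlier results of these data known. Named were all 9 genes, up to 3 called genes of each pathway list per comparison, the 2 most abundant genes of each marker list and the 3 genes most like each target gene; a few genes that this rule names are not reported here. The fits were run on simulated counts only as a check of the code. Those counts had the same spread for every gene, unlike these data, so they say nothing of the calls here. Alternatives were other scaling, filters, DESeq2, limma on log2(TPM + 1) or log2(TPM + 0.1), left-out libraries and, added after seeing the data, left-out P numbers. Promoter windows came from RefSeq (GRCr8).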

Additional observations from a re-analysis of the deposited data

How the results depend on the processing

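No gene passed with groups only in any comparison under edgeR with DESeq2 size factors or library totals, without the count filter, with only genes averaging 100 reads or more, or limma on TPM; without the block DESeq2 called 64 genes for 10 µM against basal, 5 for 1 µM against basal and 66 for 10 µM against 1 µM. With the P number as a block, calls for 10 µM against basal were 607, and 609 with DESeq2 size factors, 834 with library totals (131 higher, 703 lower, against 202 and 405), 947 with DESeq2 and 502 with limma. For 10 µM against 1 µM they were 659, then 656, 926 (117 higher, 809 lower, against 200 and 459), 987 and 453, and for 1 µM against basal DESeq2 called 8 with the block. Leaving out 1 library in turn, in either fit, gave 0 to 581, 0 to 2 and 0 to 651 calls for 10 µM against basal, 1 µM against basal and 10 µM against 1 µM. The blocked count for 10 µM against basal was 0 without basal P11, 1 without basal P13, 57 without basal P14, 64 without 10 µM P14 and 158 without 10 µM P13. Without the 3 P11, P13 or P14 libraries it was 10, 63 and 0, and against 1 µM it was 110, 20 and 0. Such refits have fewer libraries, hence fewer residual degrees of freedom. Of the 7 genes with a promoter window, 3 held a match with up to 3 mismatches, and 1 with up to 2.

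All sign changes of the 9 genes were in uncalled values of Acadl, Acadvl, Hadha, Ppard, Ppara, Pdk4 and, at 1 µM, Angptl4 and Cpt1a, and their cause was not tested. For 10 µM against basal with the block, library totals and log2(TPM + 1) also moved the median of all genes from -0.011 to -0.058 and -0.072. Of 303 values of the 9 genes per comparison under all settings, 262 kept their direction and side of the threshold for 10 µM against basal, 254 for 1 µM against basal and 265 for 10 µM against 1 µM. A further 16 for 10 µM against basal and 17 for 10 µM against 1 µM, all of Angptl4, Cpt1a and Plin2 and all with the block, passed the threshold that they missed with groups only. For 10 µM against basal, values that took the other sign were Ppard -0.010 (library totals), Ppard -0.055 (limma on log2(TPM + 1), with or without the block or the filter), Ppard -0.057 (limma on log2(TPM + 0.1)), Ppard -0.011 (with the block, library totals), Acadl 0.0077 (with the block, without the 3 P11 libraries), Ppard -0.00021, Ppara 0.26 (with the block, without the 3 P13 libraries), Acadl 0.051 (with the block, without the 3 P14 libraries). Leaving out 1 library in turn, in either fit, the log2 fold change for 10 µM against basal ran over Acadl -0.076 to 0.041, Acadvl -0.091 to 0.20, Ppard -0.0017 to 0.070, Ppara -0.27 to 0.19. For 1 µM against basal, values that took the other sign were Angptl4 0.0033, Ppard -0.00196 (limma on log2(TPM + 1), with or without the block or the filter), Angptl4 0.017, Ppard -0.0021 (limma on log2(TPM + 0.1)), Angptl4 0.0023 (with the block), Angptl4 0.0015 (with the block, DESeq2 size factors), Angptl4 0.011 (with the block, library totals), Angptl4 0.0047 (with the block, DESeq2 test), Angptl4 0.16, Pdk4 0.24, Acadvl 0.042, Ppard -0.011 (with the block, without the 3 P13 libraries), Hadha -0.013, Ppard -0.0029 (with the block, without the 3 P14 libraries). Leaving out 1 library in turn, in either fit, the log2 fold change for 1 µM against basal ran over Angptl4 -0.37 to 0.50, Pdk4 -0.48 to 0.29, Cpt1a -0.25 to 0.0086, Acadl -0.064 to 0.028, Acadvl -0.20 to 0.12, Hadha -0.020 to 0.051, Ppard -0.023 to 0.024. For 10 µM against 1 µM, values that took the other sign were Acadl -0.038, Ppard -0.024 (library totals), Acadl -0.051, Ppard -0.053 (limma on log2(TPM + 1), with or without the block or the filter), Acadl -0.051, Ppard -0.055 (limma on log2(TPM + 0.1)), Acadl -0.040, Ppard -0.025 (with the block, library totals), Acadl -0.062 (with the block, without the 3 P13 libraries), Pdk4 0.0028 (with the block, without the 3 P14 libraries). Leaving out 1 library in turn, in either fit, the log2 fold change for 10 µM against 1 µM ran over Acadl -0.051 to 0.069, Acadvl -0.067 to 0.27, Ppard -0.0052 to 0.067.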

Other observations

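The partners of the PPARs were described above only by counts, and the genes here were chosen after their values were seen. Of the retinoid X receptors, which pair with PPARs on DNA, Rxra had 13.2 to 19.3 TPM in 10 µM cultures and 20.7 to 21.4 TPM in basal cultures, and Rxrb 40.1 to 66.5 TPM with 10 µM and 44.6 to 64.3 TPM in basal cultures. Their blocked log2 fold changes were -0.23 ± 0.10 (adjusted p = 0.205) and 0.12 ± 0.07 (adjusted p = 0.328), so neither passed. Ppargc1a, a coactivator that drives mitochondrial gene expression, had 3.98, 2.19 and 4.51 TPM in P11, P13 and P14 with 10 µM, against 5.998, 3.996 and 5.55 TPM in basal cultures. It was lower for each P number, with a blocked log2 fold change of -0.52 ± 0.13 that did not pass (adjusted p = 0.0719). The corepressor gene Nrip1 (-0.30 ± 0.08, adjusted p = 0.0709) and the coactivator gene Ncoa3 (-0.30 ± 0.09, adjusted p = 0.0866) were also below 0 without passing.

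Of the PPAR targets of other tissues, Fabp4, a fatty acid carrier of fat cells and macrophages, had 12, 8 and 2 reads in P11, P13 and P14 with 10 µM, against 16, 13 and 21 reads in basal cultures. Its blocked log2 fold change of -1.59 ± 0.44 did not pass (adjusted p = 0.0840) and rests on these few reads.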
